A study of Mus musculus with 13 samples.

Results

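Neutrophils find their way by chemoattractant receptors, and the RNA of 8 of these was followed in bulk RNA-seq of mouse bone marrow HSPCs (blood stem and progenitor cells): Cxcr2, Cxcr4, Fpr1, Fpr2, Ltb4r1, C5ar1, C3ar1 and Ptafr. The genes were taken by symbol from the 55421 genes of the deposited tables. All 8 were found, and all 8 passed the filter on low counts that left 19289 tested genes. The 10 bulk libraries carry 1 of 4 genotypes: double mutant (Setd2 knockout and Srsf2 mutated, n = 3), Srsf2 mutated (n = 3), Setd2 knockout (n = 2) and wild type (n = 2). Setd2 encodes a histone methyltransferase that acts on transcribed genes, and Srsf2 encodes a splicing factor. The series title names the Srsf2 allele as P95H and places the work in myelodysplastic syndrome.

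The labels describe mice and sort only for 3 single-cell samples, which were not analysed here: Lin- c-Kit+ cells of Mx1-Cre+ animals, wild type included, with Srsf2P95H/+ alone or beside Setd2fl/fl, in a BMT model 4 weeks after pIpC. Mx1-Cre is a recombinase driven by an interferon-responsive promoter, which pIpC switches on in blood cells and in other tissues. For the bulk libraries the Cre, the induction, the transplant, the sort and the age are not stated. The labels do not say whether libraries of a group came from separate mice, so p-values measure the spread between these libraries, which may be technical.

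The receptors are G protein-coupled receptors of the cell surface, which turn a gradient of a ligand into directed movement. CXCR4, the receptor of the stromal chemokine CXCL12, holds neutrophils in the marrow, and CXCR2, the receptor of CXCL1, CXCL2 and related chemokines, draws them into the blood. In tissue they follow leukotriene B4 through BLT1 (gene Ltb4r1), the complement fragment C5a through C5AR1 and formyl peptides through FPR1 and FPR2. C3AR1 binds the complement fragment C3a, and PTAFR binds platelet-activating factor. Most of these receptors appear late in neutrophil maturation, whereas CXCR4 is also found on stem cells, progenitors and B cell precursors.

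Total counts ran from 32117387 to 50445434 per library. Kit, which marks HSPCs, averaged 163 ± 4.04 in double mutant, 206 ± 12.7 in Srsf2 mutated, 444 ± 14.6 in Setd2 knockout and 422 ± 33.7 in wild type libraries (CPM, counts scaled to the size of the library, ± SD). RNA of maturing neutrophils was present as well: the 20 late neutrophil markers summed to 37986 to 38801 in double mutant, 16499 to 20157 in Srsf2 mutated, 6951 to 7548 in Setd2 knockout and 19025 to 26395 in wild type libraries (CPM). In such bulk samples, fewer cells of a type and less RNA per cell cannot be told apart. Sex-linked genes moved with the groups. Xist averaged 7.41 ± 0.565 in double mutant, 1.78 ± 0.655 in Srsf2 mutated, 0.598 ± 0.0517 in Setd2 knockout and 485 ± 19.7 in wild type libraries (CPM), and the Y-linked gene Ddx3y averaged 124 ± 4.39 CPM in double mutant and 111 ± 7.91 CPM in Srsf2 mutated libraries but had 0 counts in Setd2 knockout and wild type libraries. In comparisons between groups that differ in these genes, that difference and the genotype cannot be told apart. Setd2, counted over the whole gene, averaged 130.4 ± 0.870 in double mutant, 197 ± 34.8 in Srsf2 mutated, 222 ± 12.9 in Setd2 knockout and 152 ± 9.63 in wild type libraries (CPM). It was thus not lower in Setd2 knockout than in wild type, and since a whole-gene count need not show a deletion of some exons, it does not check the genotype.

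Cxcr2, Fpr2, Ltb4r1, C5ar1 and Ptafr fell in Setd2 knockout against wild type and rose in double mutant against Srsf2 mutated. By level, Cxcr2, Fpr1, Fpr2, C5ar1 and Ptafr stood highest in the double mutant. Cxcr4 and Ltb4r1 stood highest in wild type, and C3ar1 was high in both groups with mutated Srsf2. The plot of receptor levels shows each library.

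**Figure D1:**
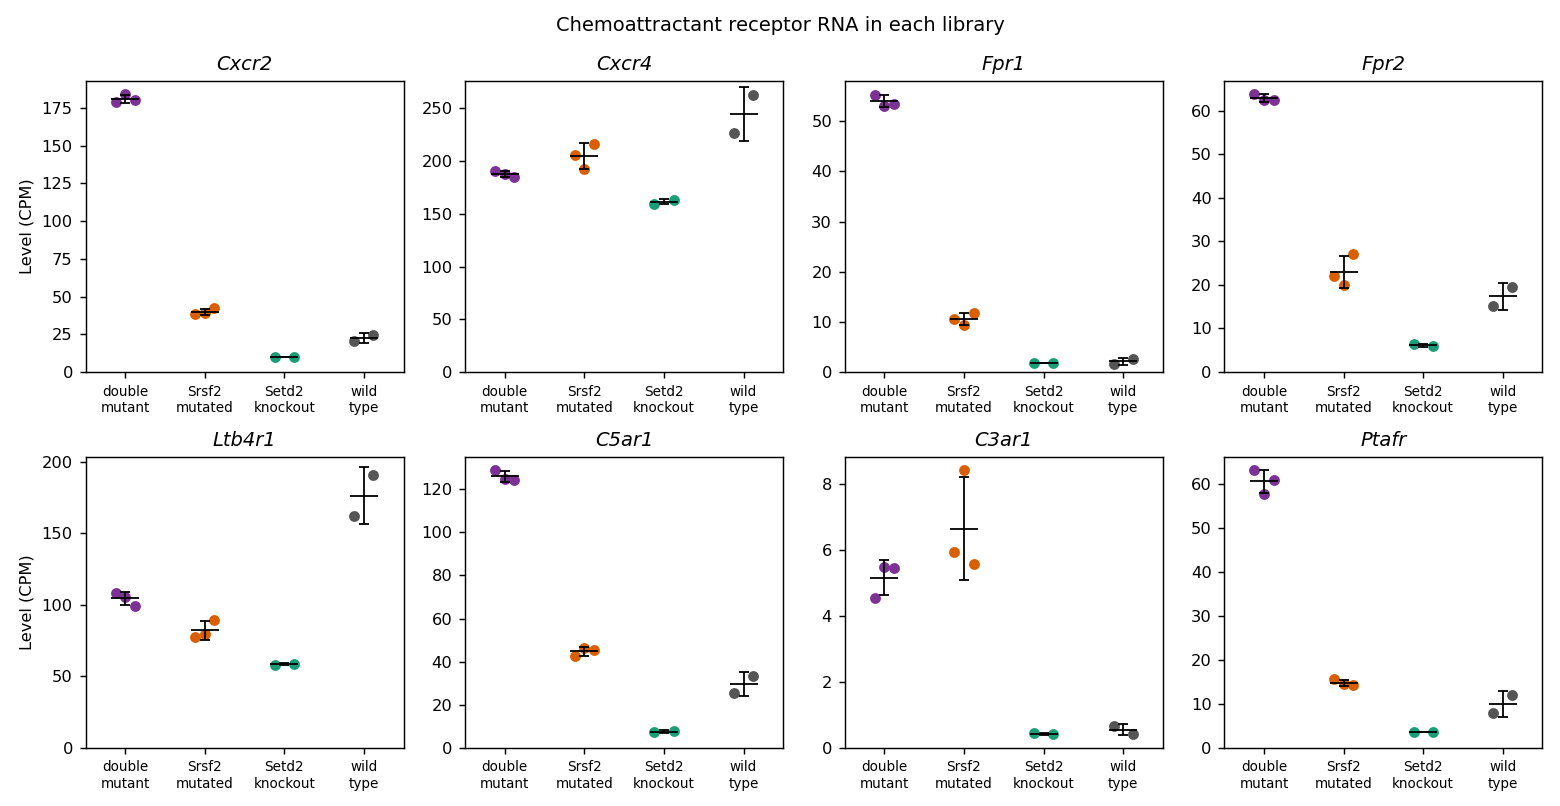
Level of each receptor in CPM (vertical axes, from 0) in the 10 libraries, by genotype. Points are libraries, and the bars give the mean and SD of each group. Cxcr2 averaged 181 ± 2.78 in double mutant, 39.9 ± 1.96 in Srsf2 mutated, 9.88 ± 0.236 in Setd2 knockout and 22.5 ± 3.22 in wild type libraries, while Cxcr4 averaged 188 ± 3.17 in double mutant, 205 ± 12.1 in Srsf2 mutated, 161 ± 2.38 in Setd2 knockout and 245 ± 25.8 in wild type libraries.

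Per length, Cxcr4 and Ltb4r1 were the most abundant of the receptors in each group. In deposited FPKM (fragments scaled to gene length and library size), Cxcr4 averaged 99.5 ± 1.52 in double mutant, 116 ± 4.74 in Srsf2 mutated, 97.1 ± 1.04 in Setd2 knockout and 127 ± 12.7 in wild type libraries. Ltb4r1 averaged 71.8 ± 3.19 in double mutant, 60.5 ± 3.97 in Srsf2 mutated, 45.7 ± 0.181 in Setd2 knockout and 119 ± 13 in wild type libraries (FPKM), and its values overlapped those of Cxcr4 in wild type alone. C3ar1 was the lowest in each group, with 1.15 ± 0.122 in double mutant, 1.59 ± 0.399 in Srsf2 mutated, 0.106 ± 0.00581 in Setd2 knockout and 0.118 ± 0.0368 in wild type libraries (FPKM). Between these, the order in double mutant libraries was Cxcr2 (56.9 ± 1.04 FPKM), C5ar1 (47 ± 0.846 FPKM), Fpr2 (46.5 ± 0.514 FPKM), Fpr1 (39.1 ± 0.751 FPKM) and Ptafr (15.9 ± 0.645 FPKM). Among neighbours in that order C5ar1 and Fpr2 overlapped. In wild type libraries it was Fpr2 (12.6 ± 2.19 FPKM), C5ar1 (10.8 ± 1.95 FPKM), Cxcr2 (6.93 ± 0.958 FPKM), Ptafr (2.56 ± 0.729 FPKM) and Fpr1 (1.51 ± 0.452 FPKM), and Fpr2 and C5ar1 overlapped there too. Cxcr2 thus stood above the complement and formyl peptide receptors in the double mutant and below C5ar1 and Fpr2 in wild type.

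The FPKM of the 8 receptors summed to 371 to 384 in double mutant, 233 to 253 in Srsf2 mutated, 157 to 158 in Setd2 knockout and 257 to 302 in wild type libraries. FPKM are scaled by the raw total of each library, unlike the CPM and the tests, so FPKM levels between groups also depend on that scaling. Shares and ratios within a library do not. Cxcr4 and Ltb4r1 together held 45.3% ± 0.515 in double mutant, 73.6% ± 0.274 in Srsf2 mutated, 90.7% ± 0.167 in Setd2 knockout and 87.7% ± 0.829 in wild type libraries of that sum. Cxcr2 held 15.1% ± 0.403 in double mutant, 5.60% ± 0.132 in Srsf2 mutated, 2.24% ± 0.0777 in Setd2 knockout and 2.47% ± 0.0597 in wild type libraries. The ratio of Cxcr2 to Cxcr4 RNA moved with that share. It was taken over the whole bulk RNA, so it does not give the balance within neutrophils. Per length, the ratio of Cxcr2 to Cxcr4 was 0.572 ± 0.0145 in double mutant, 0.116 ± 0.00450 in Srsf2 mutated, 0.0364 ± 0.00140 in Setd2 knockout and 0.0546 ± 0.00207 in wild type libraries, and no groups overlapped. The ratio of Fpr1 to Fpr2 was 0.839 ± 0.00798 in double mutant, 0.450 ± 0.0196 in Srsf2 mutated, 0.298 ± 0.0152 in Setd2 knockout and 0.118 ± 0.0153 in wild type libraries, again without overlap.

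**Figure D2:**
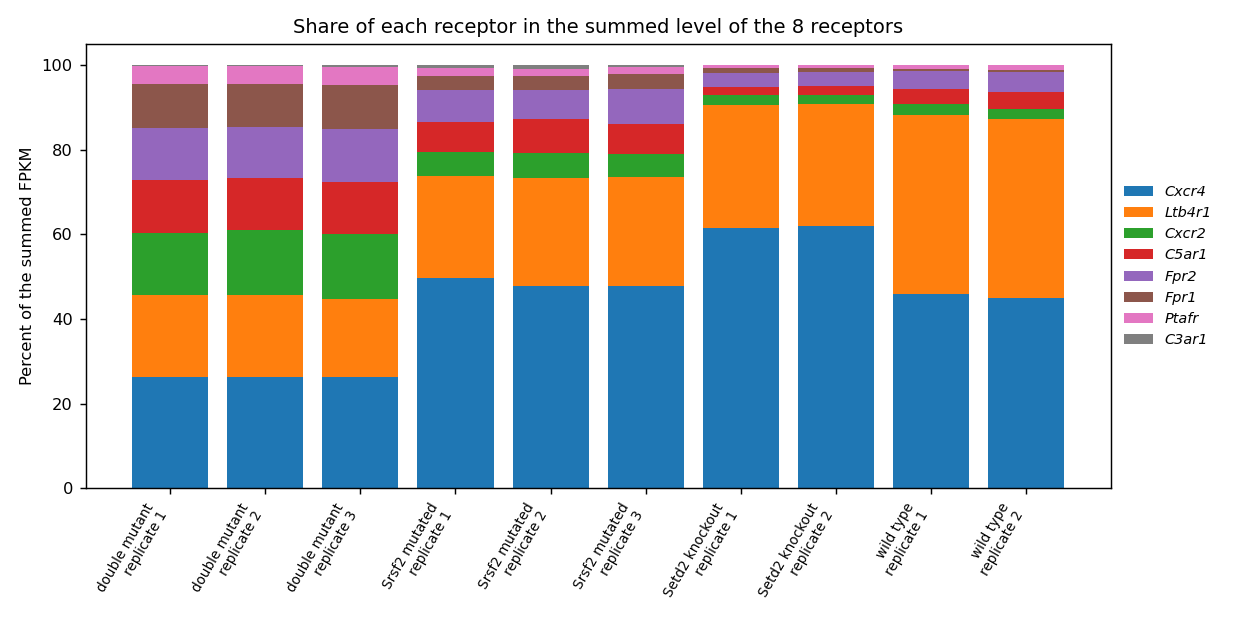
Share of each receptor in the summed FPKM of the 8 receptors (vertical axis, percent), with 1 stacked bar for each library (horizontal axis). Cxcr4 and Ltb4r1, the lowest segments, took 44.7% to 45.6% in double mutant, 73.4% to 73.9% in Srsf2 mutated, 90.6% to 90.9% in Setd2 knockout and 87.1% to 88.3% in wild type libraries.

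Profiles across the 10 libraries were compared by the root-mean-square distance between log2(CPM + 1) values centred per gene, as a description. Cxcr2 and Ptafr were the closest pair, at 0.19 log2 units, followed by C5ar1 and Ptafr at 0.29 and by Fpr2 and C5ar1 at 0.30. Fpr1 and Fpr2, neighbours on chromosome 17, were 0.82 apart, and Cxcr2 and Cxcr4 were 1.5 apart. Fpr1 and Ltb4r1 were the farthest pair, at 1.8.

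Promoter sequence is shown for the closest pair, Cxcr2 and Ptafr, for the neighbours Fpr1 and Fpr2, whose profiles differed, and for Cxcr4, whose level varied least. Each run holds the 250 bases before the start of the gene in RefSeq (GRCm38.p6), 5′ to 3′ on the strand of the gene. Capitals mark matches on either strand to GAGGAA (a core of PU.1 sites), TTNCNNAA (C/EBP), TGTGGT (RUNX) and TATAAA (the TATA box).
Cxcr2, chr1:74153744-74153993, plus strand: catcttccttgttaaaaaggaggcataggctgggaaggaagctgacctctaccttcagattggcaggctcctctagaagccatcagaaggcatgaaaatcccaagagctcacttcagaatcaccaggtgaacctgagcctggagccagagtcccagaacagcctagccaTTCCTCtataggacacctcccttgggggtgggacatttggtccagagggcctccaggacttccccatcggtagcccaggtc
Ptafr, chr4:132563817-132564066, plus strand: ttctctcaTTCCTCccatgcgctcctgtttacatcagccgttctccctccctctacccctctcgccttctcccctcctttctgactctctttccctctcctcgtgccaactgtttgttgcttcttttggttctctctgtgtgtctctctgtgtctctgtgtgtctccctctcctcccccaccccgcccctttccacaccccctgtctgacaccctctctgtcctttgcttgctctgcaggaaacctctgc
Fpr1, chr17:17883940-17884189, minus strand: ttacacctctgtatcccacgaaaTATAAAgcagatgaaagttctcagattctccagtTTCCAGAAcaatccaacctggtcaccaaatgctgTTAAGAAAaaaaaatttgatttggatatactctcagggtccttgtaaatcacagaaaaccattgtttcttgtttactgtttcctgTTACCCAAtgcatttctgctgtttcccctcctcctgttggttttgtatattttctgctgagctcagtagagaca
Fpr2, chr17:17887574-17887823, plus strand: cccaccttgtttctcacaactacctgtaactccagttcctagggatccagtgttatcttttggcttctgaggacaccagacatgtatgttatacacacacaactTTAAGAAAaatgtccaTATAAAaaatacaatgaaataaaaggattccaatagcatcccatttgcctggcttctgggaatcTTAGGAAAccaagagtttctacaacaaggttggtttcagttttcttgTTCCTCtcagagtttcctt
Cxcr4, chr1:128592300-128592549, minus strand: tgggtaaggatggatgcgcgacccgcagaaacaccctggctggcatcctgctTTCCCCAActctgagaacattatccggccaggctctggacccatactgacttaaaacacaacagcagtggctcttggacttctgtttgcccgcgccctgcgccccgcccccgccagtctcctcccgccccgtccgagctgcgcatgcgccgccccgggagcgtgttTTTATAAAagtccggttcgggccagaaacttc

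GAGGAA was found in 4 of 8 receptor promoters (Cxcr2, Fpr2, Ltb4r1 and Ptafr), and in 23.3% of 32851 RefSeq promoter windows of that length. It lay 81 to 76 bases before the start in Cxcr2, 19 to 14 in Fpr2 and 242 to 237 in Ptafr, so the closest pair held it at different distances. TTNCNNAA was found in 4 of 8 (Cxcr4, Fpr1, Fpr2 and C5ar1), against 36.8% of all windows, with 3 matches in Fpr1 and 2 in Fpr2. TATAAA was found in 4 of 8 (Cxcr4, Fpr1, Fpr2 and C3ar1), against 12.4%. In Cxcr4 it lay 30 to 25 bases before the start and overlapped a match on the other strand. TGTGGT was found in 2 of 8 (Ltb4r1 and C5ar1), against 14%. The NF-kB motif was found in 0 of 8, against 1.21%. Such matches describe letters in a window and say nothing of binding.

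Setd2 knockout against wild type (n = 2 each) shows the Setd2 knockout with normal Srsf2. Of the 8 receptors 6 fell and 0 rose, while 38.6% of all tested genes were called, 18.7% higher and 19.9% lower. A gene was called at an adjusted p under 0.05 in edgeR (quasi-likelihood, Benjamini-Hochberg over all tested genes). The median log2 value was -1.32 over the receptors and 0.042 over all tested genes. The 6 calls held under each alternative tried. With upper-quartile scaling 59.5% of all called genes were higher, against 48.4% with the scaling used here.

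The receptor of C5a fell most. Next came that of leukotriene B4, whose log2 value lay close to those of Fpr2 and Ptafr. C5ar1 (ENSMUSG00000049130, chromosome 7, 16246743 to 16259540, minus strand) had 7.11 and 7.87 CPM in Setd2 knockout libraries, against 25.6 and 33.4 CPM in wild type libraries. It was 3.94-fold lower (log2 fold change -1.98 ± 0.119, adjusted p = 6.93e-09 by edgeR). After ±, log2 values carry an approximate SE. Ltb4r1 (ENSMUSG00000046908, chromosome 14, 55765962 to 55768494, plus strand) had 58.2 and 58.8 CPM in Setd2 knockout, against 162 and 191 CPM in wild type libraries, and was 3.01-fold lower (-1.59 ± 0.0956, adjusted p = 6.8e-09). The groups did not overlap for either gene, and the Setd2 knockout libraries lay closer to each other than the wild type libraries did.

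Among the formyl peptide receptors, Fpr2 (ENSMUSG00000052270, chromosome 17, 17887824 to 17893952, plus strand) had 6.33 and 5.90 CPM in Setd2 knockout, against 15.2 and 19.6 CPM in wild type libraries (-1.51 ± 0.148, adjusted p = 1.21e-06). Fpr1 (ENSMUSG00000045551, chromosome 17, 17876471 to 17883940, minus strand), its neighbour, had 1.86 and 1.86 CPM in Setd2 knockout, against 1.67 and 2.59 CPM in wild type libraries, and the groups overlapped (-0.19 ± 0.197, adjusted p = 0.469). So Fpr2 fell and Fpr1 did not pass the test. The genes are similar in sequence, and how reads that match several of them were counted is not given in the sources used here. Fpr2 shares 48 exonic bases (3.70% of its exons) with Fpr3, which had 0 counts in 9 of 10 libraries. Ptafr (ENSMUSG00000056529, chromosome 4, 132564067 to 132582683, plus strand), the lipid receptor, had 3.63 and 3.66 CPM in Setd2 knockout, against 7.90 and 12 CPM in wild type libraries (-1.45 ± 0.161, adjusted p = 4.49e-06).

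Both chemokine receptors fell. Cxcr2 (ENSMUSG00000026180, chromosome 1, 74153989 to 74161246, plus strand) had 10.0 and 9.71 CPM in Setd2 knockout, against 20.3 and 24.8 CPM in wild type libraries (-1.19 ± 0.102, adjusted p = 2.98e-07). Cxcr4 (ENSMUSG00000045382, chromosome 1, 128588199 to 128592293, minus strand) had 159.5 and 163 CPM in Setd2 knockout, against 226 and 263 CPM in wild type libraries (-0.60 ± 0.0834, adjusted p = 3.9e-05). The log2 change of Cxcr4 was the smallest among the 6 called receptors. C3ar1 (ENSMUSG00000040552, chromosome 6, 122847138 to 122856161, minus strand) was low in both groups, with 0.432 and 0.402 CPM in Setd2 knockout and 0.659 and 0.423 CPM in wild type libraries (-0.37 ± 0.360, adjusted p = 0.444). That C3ar1 value was -0.023 without wild type replicate 1 and -0.66 without wild type replicate 2. Positions are those of GENCODE M21 on GRCm38, in which Fpr2 alone among the 8 overlaps another gene.

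Neutrophil markers moved with the receptors. Of 20 late neutrophil markers 0 rose and 18 fell (median -1.53), among them the alarmin gene S100a8 (-1.74 ± 0.132) and the surface antigen gene Ly6g (-1.56 ± 0.155). Of 11 early neutrophil markers 0 rose and 11 fell (median -0.95), of 9 eosinophil markers 0 rose and 7 fell (median -2.29), and of 17 monocyte and macrophage markers 3 rose and 6 fell (median 0.014). The summed early neutrophil markers were 14925 to 16089 CPM in Setd2 knockout and 27554 to 27919 CPM in wild type libraries, and no marker of these lists was at 0 in every library. Markers of other lineages moved too. Of 14 erythroid markers 14 rose and 0 fell (median 1.5), and they summed to 2703 to 2738 CPM in Setd2 knockout and 922 to 1000.4 CPM in wild type libraries. Of 13 B lymphoid markers 1 rose and 6 fell (median -0.35). The part of these cells in the receptor changes was not tested.

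Srsf2 mutated against wild type (n = 3 and 2) shows the mutation with normal Setd2. All 8 receptors were called, 6 higher and 2 lower, while 56.3% of all tested genes were called, 28.5% higher and 27.8% lower. The median log2 value was 0.58 over the receptors and 0.082 over all tested genes. C3ar1 and Fpr1 rose most, and Ltb4r1 and Cxcr4 fell.

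C3ar1 had 5.94, 8.41 and 5.57 CPM in Srsf2 mutated libraries, against 0.659 and 0.423 CPM in wild type libraries. It was 12.2-fold higher (3.61 ± 0.284, adjusted p = 3.09e-08 by edgeR). Fpr1 had 10.5, 9.30 and 11.8 CPM in Srsf2 mutated, against 1.67 and 2.59 CPM in wild type libraries, and was 4.94-fold higher (2.3 ± 0.162, adjusted p = 8.38e-09). For both genes the Srsf2 mutated libraries all lay far above the wild type libraries.

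Cxcr2 had 38.5, 39 and 42.1 CPM in Srsf2 mutated, against 20.3 and 24.8 CPM in wild type libraries (0.82 ± 0.0893, adjusted p = 1.15e-06). C5ar1 had 42.5, 46.4 and 45.3 CPM in Srsf2 mutated, against 25.6 and 33.4 CPM in wild type libraries (0.60 ± 0.101, adjusted p = 0.000105). Both increases were smaller than those of C3ar1 and Fpr1, and the groups did not overlap. Ptafr had 15.5, 14.5 and 14.2 CPM in Srsf2 mutated, against 7.90 and 12 CPM in wild type libraries (0.57 ± 0.135, adjusted p = 0.00205). Fpr2 had 22.1, 20.0 and 27 CPM in Srsf2 mutated, against 15.2 and 19.6 CPM in wild type libraries (0.40 ± 0.127, adjusted p = 0.0134), and its highest wild type library came close to its lowest Srsf2 mutated library. Both calls ended without wild type replicate 1, for Ptafr (0.30, adjusted p = 0.0554) and for Fpr2 (0.23, adjusted p = 0.229). Without wild type replicate 2 Ptafr had a larger value (0.89, adjusted p = 3.54e-05).

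Ltb4r1 had 77.6, 79.3 and 89.7 CPM in Srsf2 mutated, against 162 and 191 CPM in wild type libraries, and was 2.15-fold lower (-1.1 ± 0.0839, adjusted p = 2.1e-08). It was thus lower than wild type in both single genotypes. Cxcr4 had 205, 192 and 216 CPM in Srsf2 mutated, against 226 and 263 CPM in wild type libraries (-0.26 ± 0.0754, adjusted p = 0.00878). That call ended with upper-quartile scaling (-0.16, adjusted p = 0.0907), with only these groups in the fit (-0.24, adjusted p = 0.0691) and without wild type replicate 2 (-0.15, adjusted p = 0.154).

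The late neutrophil markers were divided: of 20, 7 rose and 9 fell (median -0.18), with Mmp8, a collagenase of neutrophil granules, at 2.65 ± 0.0785 and S100a8 at -0.65 ± 0.116. Of 11 early neutrophil markers 0 rose and 11 fell (median -1.41). Of 17 monocyte and macrophage markers 12 rose and 3 fell (median 0.58), with Ctss, a lysosomal protease, at 1.66 ± 0.0864. On that list F13a1 averaged 352 ± 4.08 in Srsf2 mutated and 332 ± 10.9 in wild type libraries (CPM ± SD). Ly6c2 averaged 574 ± 57.3 in Srsf2 mutated and 1208 ± 1.99 in wild type libraries (CPM ± SD). Among other lineages, of 13 B lymphoid markers 13 rose and 0 fell (median 3.5), of 12 T and NK markers 8 rose and 0 fell (median 1.68), of 13 mast cell and basophil markers 7 rose and 1 fell (median 1.87), and of 9 eosinophil markers 6 rose and 2 fell (median 0.68). The T and NK markers were low in each group. They summed to 59.1 to 64.0 CPM in double mutant and 64.3 to 69.0 CPM in Srsf2 mutated libraries. In Setd2 knockout libraries the sum was 22.5 to 24.0 CPM, and in wild type libraries 15.0 to 15.9 CPM. Of 14 erythroid markers 7 rose and 4 fell (median 0.40). Their sum was 6427 to 8047 CPM in Srsf2 mutated and 922 to 1000.4 CPM in wild type libraries, and the globin gene Hba-a1 averaged 2374 ± 359 CPM in Srsf2 mutated and 29 ± 1.69 CPM in wild type libraries (SD). The part of these cells in the receptor changes was not tested.

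Double mutant against Srsf2 mutated (n = 3 each) shows the Setd2 knockout with mutated Srsf2. Here 6 receptors rose and 0 fell, while 33.8% of all tested genes were called, 17.8% higher and 15.9% lower. The median log2 value was 1.47 over the receptors and 0.0049 over all tested genes. The 6 calls held under each alternative tried, and both groups held Ddx3y RNA and little Xist RNA.

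Fpr1 and Cxcr2 rose most. Fpr1 had 55.3, 53 and 53.5 CPM in double mutant libraries, against 10.5, 9.30 and 11.8 CPM in Srsf2 mutated libraries. It was 5.13-fold higher (2.36 ± 0.118, adjusted p = 2.79e-10 by edgeR). Cxcr2 had 179, 184 and 180.1 CPM in double mutant, against 38.5, 39 and 42.1 CPM in Srsf2 mutated libraries, and was 4.54-fold higher (2.18 ± 0.0782, adjusted p = 5.79e-12). For both genes the differences were large beside the spread within the groups, which did not overlap.

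Ptafr had 63, 57.8 and 60.8 CPM in double mutant, against 15.5, 14.5 and 14.2 CPM in Srsf2 mutated libraries (2.04 ± 0.116, adjusted p = 1.22e-09). C5ar1 had 129, 125 and 124 CPM in double mutant, against 42.5, 46.4 and 45.3 CPM in Srsf2 mutated libraries (1.49 ± 0.0882, adjusted p = 1.89e-09). Fpr2 had 63.9, 62.5 and 62.4 CPM in double mutant, against 22.1, 20.0 and 27 CPM in Srsf2 mutated libraries (1.45 ± 0.111, adjusted p = 3.78e-08). All of these had fallen in Setd2 knockout against wild type.

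Ltb4r1 rose by less. It had 108, 106 and 99.2 CPM in double mutant, against 77.6, 79.3 and 89.7 CPM in Srsf2 mutated libraries (0.35 ± 0.0766, adjusted p = 0.00219). Cxcr4 had 191, 188 and 185 CPM in double mutant, against 205, 192 and 216 CPM in Srsf2 mutated libraries (-0.12 ± 0.0679, adjusted p = 0.179). C3ar1 had 4.53, 5.47 and 5.44 CPM in double mutant, against 5.94, 8.41 and 5.57 CPM in Srsf2 mutated libraries (-0.37 ± 0.196, adjusted p = 0.171). For Cxcr4 and C3ar1 each double mutant library lay below each Srsf2 mutated library, but the differences did not pass the test. The C3ar1 value was -0.16 without Srsf2 mutated replicate 2, and lay between -0.48 and -0.16 over all fits with 1 library left out.

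Of 20 late neutrophil markers 20 rose and 0 fell (median 1.18), with S100a8 at 1.16 ± 0.106, Ly6g at 1.32 ± 0.117 and Mmp8 at 2.27 ± 0.0641. Of 11 early neutrophil markers 2 rose and 8 fell (median -0.36), and of 14 HSPC markers 2 rose and 10 fell (median -0.45). Of 17 monocyte and macrophage markers 9 rose and 2 fell (median 0.15), with Csf1r, the receptor of a macrophage growth factor, at 0.11 ± 0.0606 (adjusted p = 0.181). All 14 erythroid markers rose (median 2.02), and they summed to 21984 to 23385 CPM in double mutant and 6427 to 8047 CPM in Srsf2 mutated libraries. Of 13 B lymphoid markers 0 rose and 12 fell (median -1.69), of 9 eosinophil markers 7 rose and 0 fell (median 0.84), of 12 T and NK markers 6 rose and 1 fell (median 0.48), and of 13 mast cell and basophil markers 4 rose and 7 fell (median -0.64). The part of these cells in the receptor changes was not tested.

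**Figure D3:**
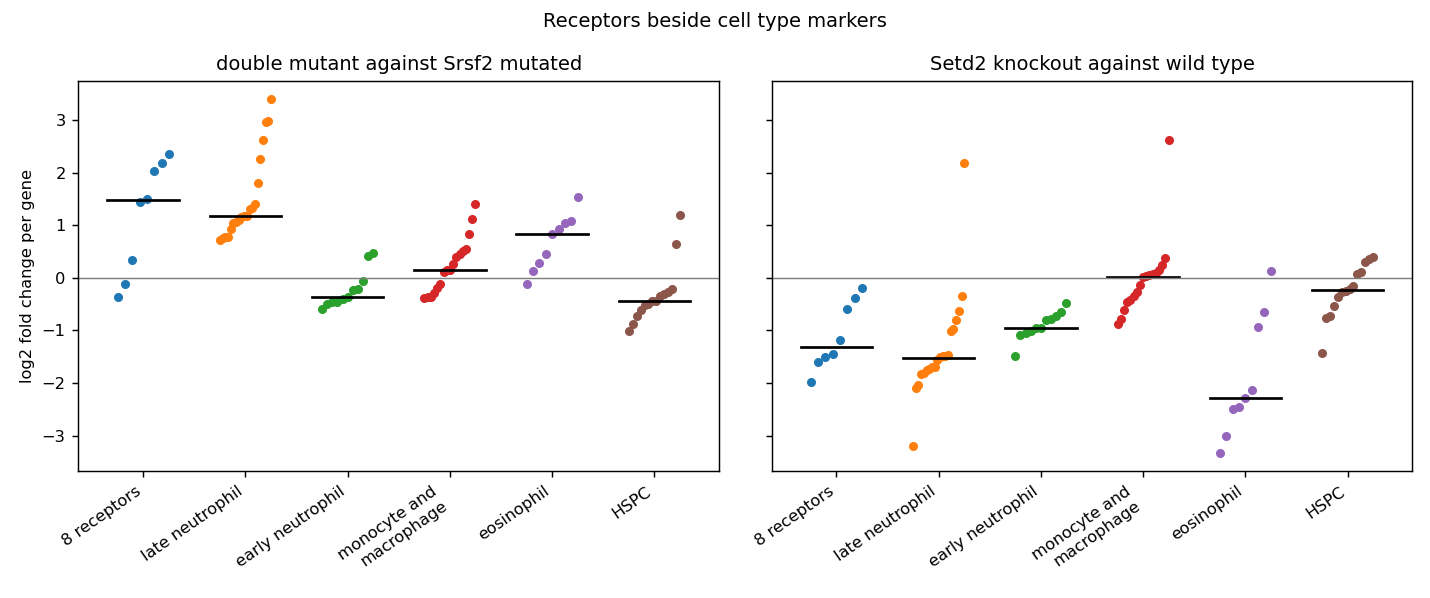
Log2 fold change of each tested gene (vertical axis) of the 8 receptors and of 5 marker lists, in double mutant against Srsf2 mutated libraries (left) and in Setd2 knockout against wild type libraries (right). Points are genes and lines are medians. The median was 1.47 and -1.32 for the receptors, and 1.18 and -1.53 for the late neutrophil markers.

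Double mutant against Setd2 knockout (n = 3 and 2) shows the Srsf2 mutation on top of the Setd2 knockout. All 8 receptors rose, while 51.8% of all tested genes were called, 26.0% higher and 25.8% lower. The median log2 value was 3.84 over the receptors and 0.0079 over all tested genes. Fpr1 averaged 54 ± 1.20 CPM in double mutant and 1.86 ± 0.00291 CPM in Setd2 knockout libraries (SD) and was 29-fold higher (4.86 ± 0.168, adjusted p = 1.09e-12 by edgeR). Cxcr2 was 18.3-fold higher, C5ar1 16.8-fold, Ptafr 16.6-fold, C3ar1 12.3-fold and Fpr2 10.3-fold. Ltb4r1 rose by less (0.84 ± 0.0879, adjusted p = 7.7e-07). Cxcr4 was called higher (0.22 ± 0.0764, adjusted p = 0.0246), but the call ended with upper-quartile scaling (0.17, adjusted p = 0.0700). It also ended without double mutant replicate 1 (adjusted p = 0.0711), double mutant replicate 2 (0.0571), Srsf2 mutated replicate 1 (0.0859), Setd2 knockout replicate 1 (0.300) or Setd2 knockout replicate 2 (0.186). Of 20 late neutrophil markers 20 rose and 0 fell (median 2.45). Of 11 early neutrophil markers 2 rose and 9 fell (median -0.80), and of 14 HSPC markers 1 rose and 11 fell (median -0.91). Of 17 monocyte and macrophage markers 12 rose and 3 fell (median 0.78). Among other lineages, of 9 eosinophil markers 9 rose and 0 fell (median 3.76), of 13 B lymphoid markers 12 rose and 0 fell (median 1.74), of 12 T and NK markers 10 rose and 0 fell (median 1.83), of 13 mast cell and basophil markers 9 rose and 4 fell (median 1.07), and of 14 erythroid markers 9 rose and 1 fell (median 0.62). The erythroid markers summed to 21984 to 23385 CPM in double mutant and 2703 to 2738 CPM in Setd2 knockout libraries. The part of these cells in the receptor values was not tested.

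The interaction is the log2 fold change of double mutant against Srsf2 mutated minus that of Setd2 knockout against wild type. Xist and Ddx3y differed between the groups that enter the interaction, so that difference and the genotypes cannot be told apart there. The interaction asks whether the Setd2 knockout acts alike with mutated and with normal Srsf2. For 7 of the 8 receptors it was called above 0, while 31.9% of all tested genes were called, 16.7% higher and 15.2% lower. The median log2 value was 2.76 over the receptors and -0.065 over all tested genes. It was 3.48 ± 0.198 for Ptafr, 3.47 ± 0.148 for C5ar1, 3.37 ± 0.128 for Cxcr2, 2.96 ± 0.185 for Fpr2, 2.55 ± 0.230 for Fpr1, 1.94 ± 0.122 for Ltb4r1 and 0.48 ± 0.107 for Cxcr4 (SE). The adjusted p by edgeR lay between 1.19e-10 for Cxcr2 and 0.00284 for Cxcr4. Cxcr2, Fpr2, Ltb4r1, C5ar1 and Ptafr were called in opposite directions in the 2 backgrounds. For C3ar1 the interaction was 0.0068 ± 0.315 (adjusted p = 0.996). With upper-quartile scaling the 7 calls held, while 37.6% of all called genes were above 0, against 52.4% here. Of 20 late neutrophil markers 18 were called above 0 (median 2.71). It was called above 0 for 9 genes and below 0 for 0 (median 2.58) on the eosinophil list of 9, above 0 for 0 genes and below 0 for 12 (median -1.56) on the B lymphoid list of 13, above 0 for 8 genes and below 0 for 0 (median 0.36) on the erythroid list of 14 and above 0 for 1 gene and below 0 for 7 (median -0.82) on the mast cell and basophil list of 13. The part of these cells in the interaction of the receptors was not tested.

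**Figure D4:**
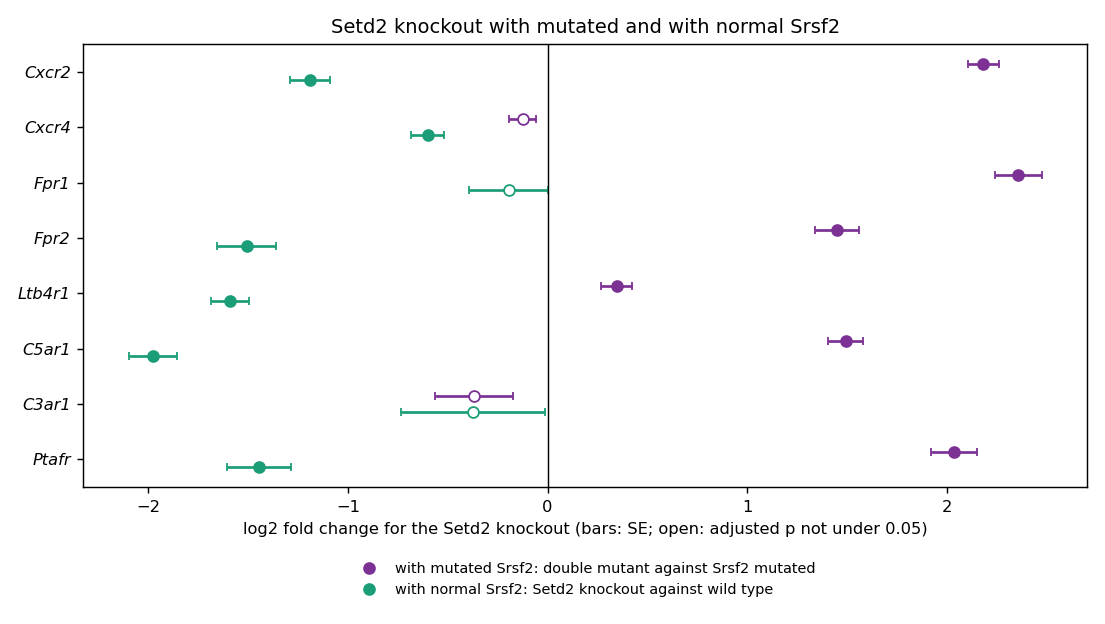
Log2 fold change of each receptor for the Setd2 knockout (horizontal axis), with mutated Srsf2 (double mutant against Srsf2 mutated, upper point) and with normal Srsf2 (Setd2 knockout against wild type, lower point). Bars are an approximate SE, derived from the log2 fold change and the F statistic of the fit. Open points did not pass the test. For C5ar1 the values were 1.49 and -1.98, and for Cxcr2 they were 2.18 and -1.19.

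Counts of pathway genes stand beside those of all tested genes, of which 38.6% were called in Setd2 knockout against wild type (median 0.042) and 56.3% in Srsf2 mutated against wild type (median 0.082). In double mutant against Srsf2 mutated 33.8% were called (median 0.0049), in double mutant against Setd2 knockout 51.8% (median 0.0079) and by the interaction 31.9% (median -0.065). Among the 40 tested genes that carry the receptors' signal into the cell, 0 rose and 32 fell (median -0.55) in Setd2 knockout against wild type. Among those that fell were the kinase gene Fgr (-1.63 ± 0.108) and the integrin chain gene Itgb2 (-1.36 ± 0.0909). In Srsf2 mutated against wild type 4 rose and 20 fell (median -0.21), led by the G protein subunits Gna15 (-1.0 ± 0.0695) and Gng11 (-0.98 ± 0.272) and the GTPase Rac2 (-0.70 ± 0.0666), a share called that was near the 56.3% of all tested genes. Between double mutant and Srsf2 mutated libraries 22 rose and 2 fell (median 0.20), among them Plcb1, a phospholipase (1.28 ± 0.220), and Fgr (1.03 ± 0.0842). Between double mutant and Setd2 knockout libraries 27 rose and 3 fell (median 0.49), led by Fgr (2.81 ± 0.106) and the integrin chains Itgam (2.28 ± 0.105) and Itgb2 (2.22 ± 0.0887). Fgr averaged 133 ± 2.82 in double mutant, 65.2 ± 3.27 in Srsf2 mutated, 19 ± 0.611 in Setd2 knockout and 58.6 ± 10.6 in wild type libraries (CPM). The interaction was called above 0 for 31 genes and below 0 for 1 (median 0.67), with Fgr at 2.66 ± 0.137 and Itgb2 at 2.14 ± 0.116.

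Of 18 genes that desensitize the receptors or act as feedback, 3 rose and 9 fell (median -0.30) in Setd2 knockout against wild type, led by the G protein regulators Rgs3 (-0.97 ± 0.155), Rgs14 (-0.93 ± 0.0979) and Rgs19 (-0.86 ± 0.0899). In Srsf2 mutated against wild type 6 rose and 7 fell (median -0.11), with Rgs2 at 1.53 ± 0.109 and Rgs1 at 1.5 ± 0.222. Rgs16 was called higher there too, with 283 counts in all in Srsf2 mutated and 3 in wild type libraries. Of these genes, in double mutant against Srsf2 mutated libraries 8 rose and 3 fell (median 0.17): Arrb1, an arrestin that uncouples active receptors, rose (1.27 ± 0.0834), as did Rgs3 (0.89 ± 0.121), while Rgs1 fell by 1.27 on the log2 scale (SE 0.191). Against Setd2 knockout libraries, in the double mutant 12 rose and 2 fell (median 0.54), led by Rgs16 (3.73 ± 0.495), Rgs3 (1.8 ± 0.146) and the receptor kinase gene Grk5 (1.57 ± 0.137). The interaction was called above 0 for 10 genes and below 0 for 2 (median 0.44), with Rgs3 at 1.86 ± 0.197, Arrb1 at 1.5 ± 0.130 and Arrb2 at 1.36 ± 0.117.

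Ligands and the enzymes that make or degrade them gave 25 tested genes of 27. In Setd2 knockout against wild type 2 rose and 11 fell (median -0.27), led by the cathelicidin gene Camp (-1.69 ± 0.184), which is also on the late neutrophil list, the complement gene C3 (-1.56 ± 0.0950) and Alox5, an enzyme of leukotriene synthesis (-1.26 ± 0.0862). In Srsf2 mutated against wild type 8 rose and 7 fell (median 0.08), a share near the 56.3% of all tested genes and a median near their 0.082, so this count is no result about the ligands. Cxcl2, a ligand of CXCR2, averaged 232 ± 15.8 in double mutant, 53.9 ± 7.64 in Srsf2 mutated, 10.2 ± 1.21 in Setd2 knockout and 4.62 ± 3.14 in wild type libraries (CPM), and rose in that comparison (3.54 ± 0.261), as did Cxcl12, the ligand of CXCR4 (2.69 ± 0.295). Cxcl3, another ligand of CXCR2, was called higher, with 558 counts in all in Srsf2 mutated and 5 in wild type libraries. In the double mutant against Srsf2 mutated 14 rose and 4 fell (median 0.56), led by Cxcl2 (2.11 ± 0.188), Pla2g7, an enzyme that degrades platelet-activating factor (2.02 ± 0.114), and the serum amyloid gene Saa3 (1.83 ± 0.630, adjusted p = 0.0343). In the double mutant against Setd2 knockout 16 rose and 4 fell (median 1.34), with Cxcl2 at 4.52 ± 0.255 and Pla2g7 at 3.69 ± 0.150. Cxcl3 was called higher there, with 779 counts in all in double mutant and 3 in Setd2 knockout libraries. The interaction was called above 0 for 11 genes and below 0 for 1 (median 0.97), with Camp at 2.42 ± 0.235, C3 at 2.08 ± 0.121 and Pla2g7 at 1.91 ± 0.207.

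Of 27 other chemoattractant receptors 21 were tested. In Setd2 knockout against wild type 2 rose and 5 fell (median 0.28), a smaller share than the 38.6% of all tested genes, so this count is no result about the list. Gpr84, a receptor of medium-chain fatty acids, fell by 1.51 on the log2 scale (SE 0.264), the sphingosine phosphate receptor gene S1pr4 fell by 1.03 on the log2 scale (SE 0.0937), and the chemokine receptor gene Xcr1 rose (2.02 ± 0.406). In Srsf2 mutated against wild type 10 rose and 3 fell (median 0.59), with the niacin receptor gene Hcar2 at 3.89 ± 0.152, the chemokine receptor gene Cxcr5 at 1.98 ± 0.338 and Gpr84 at -1.78 ± 0.236. The share called was near the 56.3% of all tested genes there, and near the 31.9% in the interaction. Between double mutant and Srsf2 mutated libraries 9 rose and 0 fell (median 0.81), led by Cxcr1 (2.67 ± 0.532), the chemokine-binding receptor gene Ackr1 (2.61 ± 0.239) and Hcar2 (1.79 ± 0.105). Hcar2 averaged 166 ± 6.09 in double mutant, 47.8 ± 2.03 in Srsf2 mutated, 3.75 ± 0.535 in Setd2 knockout and 3.22 ± 1.13 in wild type libraries (CPM). Cxcr1, a relative of Cxcr2, averaged 1.33 ± 0.610 in double mutant, 0.206 ± 0.0947 in Srsf2 mutated, 0.298 ± 0.117 in Setd2 knockout and 0.400 ± 0.0333 in wild type libraries (CPM). Between double mutant and Setd2 knockout libraries 16 rose and 0 fell (median 1.14), with Hcar2 at 5.46 ± 0.156, Ackr1 at 3.12 ± 0.290 and Gpr35 at 2.24 ± 0.161. The interaction was called above 0 for 8 genes and below 0 for 0 (median 0.53), with Cxcr1 at 3.09 ± 0.837, Gpr84 at 2.4 ± 0.344 and C5ar2, another receptor of C5a, at 2.02 ± 0.240.

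Among 11717 named genes, those with profiles nearest to each receptor across the 10 libraries were taken by the same distance. Nearest to Cxcr2 were Ptafr (0.19 log2 units) and Ceacam10 (0.20), and nearest to Ptafr were Tinagl1 (0.12) and Slc16a3 (0.17), a lactate transporter. C5ar1 had Il1rn (0.18), which encodes an interleukin receptor antagonist, and again Slc16a3 (0.19). Fpr2 had Slfn2 (0.14) and the neutrophil antigen gene Ly6g (0.14), and Fpr1 had Cstdc4 (0.14) and Tmcc2 (0.16). The 1 added to the CPM shrinks differences at low levels. Cstdc4 averaged 18.3 in double mutant, 2.86 in Srsf2 mutated, 0.086 in Setd2 knockout and 0.106 in wild type libraries (CPM). C3ar1 was also low in Setd2 knockout and wild type libraries. C3ar1 had Gngt2 (0.17), a G protein subunit, and Blk (0.17), a kinase of B cells. Ltb4r1 had Sema4a (0.13) and Tbkbp1 (0.14), and Cxcr4 had Rbfa (0.051) and Arf1 (0.057). The spread of Cxcr4 itself about its mean, on the same scale, was 0.20 log2 units.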

How the data were processed

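The authors deposited 3 tables, and each covers a pair of genotypes. Per the file headers they give a read count per gene and library, used here for the tests, and FPKM. The FPKM were used here for levels between genes and for the sums, shares and ratios of the receptors. The deposited FPKM matched count over length over total within 0.000139%. Per the file headers the authors also deposited a log2 fold change, a p-value and an adjusted p-value, and 3 columns entered here under the unit score: the standard error, the test statistic and the mean normalised count. Per the submitters' processing notes the tools include HISAT2 2.0.5, STAR 2.6.1a, HTSeq 0.9.1 and featureCounts 2.0.1 for unstated steps, and DESeq2 1.22.2. Strandedness and the handling of multi-mapped reads are not given in the sources used here. The 5 libraries found in more than 1 table had the same counts in each.

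Counts were filtered with filterByExpr and scaled by TMM in edgeR 4.0.16 (R 4.3.3), and a quasi-likelihood model with 1 term per genotype was fitted to all 10 libraries. The 5 comparisons were tested over 19289 genes, with Benjamini-Hochberg adjustment and a threshold of 0.05. The fit was also run on simulated counts in which few genes changed, in the Setd2 knockout group alone. That run does not test the scaling where many genes differ. Each SE of a log2 value was approximated as the absolute log2 fold change divided by the square root of the quasi-likelihood F statistic. CPM use TMM-scaled totals. Alternatives were median-of-ratios and upper-quartile scaling, no filter, a filter of 1 CPM in 2 libraries, the compared groups alone, DESeq2 1.42.0, a replicate block and each library left out. Genes named were the 8 receptors, the 2 nearest genes to each, 8 neutrophil and monocyte markers, and from each of 4 pathway lists the 3 called genes of largest change that reached 1 CPM, apart from a gene that is not reported here. Hba-a1 was named after its values were seen. Members, lists and rules were chosen with earlier results of these data known.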

Additional observations from a re-analysis of the deposited data

Results flagged for a closer look

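For 7 receptors the effect of the Setd2 knockout differed between mutated and normal Srsf2, by the interaction in the edgeR fit with adjustment over all tested genes. The difference of the log2 fold changes was 3.48 for Ptafr, 3.47 for C5ar1, 3.37 for Cxcr2, 2.96 for Fpr2, 2.55 for Fpr1, 1.94 for Ltb4r1 and 0.48 for Cxcr4. The 7 calls held in each fit tried with 1 library left out and under the other settings that gave an interaction. Sex-linked genes also differed between the groups that enter it, and that difference and the genotypes cannot be told apart.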

How the results depend on the processing

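Of 672 receptor values under 17 other settings, 652 kept their direction and their side of the threshold, 11 lost a call (those of Cxcr4, Fpr2 and Ptafr given with the comparisons) and 9 changed sign. The sign changes were in values that were not called. The C3ar1 interaction was -0.14 with upper-quartile scaling, -0.038 with the stricter filter and -0.35 to 0.29 with single libraries left out. Fpr1 in Setd2 knockout against wild type was -0.48 to 0.15 with single libraries left out. The cause was not tested. Genes called in Setd2 knockout against wild type numbered 7449, and 4792 (without Setd2 knockout replicate 1) to 8803 with single libraries left out. A group left with 1 library was assumed to vary like the others. Upper-quartile scaling shifted the median interaction of all genes by -0.15. The labels do not say that replicate numbers pair libraries, and deviations of same-numbered libraries correlated between -0.13 and 0.15. With a replicate block 6, 8, 6, 8 and 7 receptors were called in the 5 comparisons, the same numbers as without it, and 7513, 10501, 6642, 9756 and 6188 genes in all.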

Other observations

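In the authors' deposited table for double mutant against Srsf2 mutated, C5ar1 had a log2 fold change of 1.42 with a standard error of 0.519 and an adjusted p of 0.0762. The authors' deposited table gave Ltb4r1 0.27 with a standard error of 0.580 (adjusted p = 0.919, against 0.00219 by edgeR here). For Cxcr2 the authors' deposited table gave 2.11 with a standard error of 0.338. The highest mean normalised count in the authors' deposited table for this comparison was 1467640, while the highest count of any gene in its 6 libraries was 413131. In the authors' deposited tables for Setd2 knockout against wild type and for Srsf2 mutated against wild type, the mean normalised count of Cxcr2 was 3143 in each, while the mean of its counts in the listed libraries was 710.0 and 1443. Each of the 8 receptors had the same mean normalised count in both of the authors' deposited tables. Which libraries the authors' fits held is not given in the sources used here.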
